A study of Sus scrofa with 7 samples.

Results

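Small heat shock proteins are chaperones that hold damaged proteins in a soluble state, and BAG3 is the co-chaperone that passes their cargo to HSP70 for refolding or for removal by autophagy. The 10 genes described here are HSPB1, HSPB2, HSPB3, HSPB6, HSPB7, HSPB8, CRYAB, BAG3, HSPA8 and HSPH1. They were taken by gene symbol from the 20653 genes of the table, with the transcript row of highest mean kept for each gene, and all 10 had enough reads to be tested among 15661 genes. RNA was sequenced from the anteromidventricular myocardium of male farm pigs 14 weeks after infarction of the left circumflex (LCX) territory. All of the animals had the infarction and had been given adeno-associated virus (AAV) of serotype 5. In the 3 libraries labelled hrLuc the vector carried luciferase, a reporter enzyme, and in the 4 libraries labelled S100a1 it carried human S100A1, which encodes a calcium sensor of the cardiomyocyte. Each library is titled as a separate pig. Neither the promoter of the vectors nor the age of the animals is named in the sources used here.

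In heart muscle these chaperones sit at the Z-disc and along the intermediate filaments, where proteins are unfolded by each contraction. HSPB8 is bound by BAG3, which also holds HSPA8, the constitutive HSP70, and this complex feeds damaged filamin and other filament proteins into a route known as chaperone-assisted selective autophagy. CRYAB, or alpha B crystallin, protects desmin and titin, and mutations in CRYAB and BAG3 are known causes of cardiomyopathy.

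Added together, the transcript rows kept for the genes held 28679324 to 38409552 reads per library. The 10 genes took 0.306% to 0.370% of these sums. The sums are not the sequencing depth, and reads of overlapping genes may be in them more than once. The pig S100A1 gene did not pass (log2 fold change -0.39, adjusted p = 0.577 in limma), and because the vector carried the human sequence it does not check the labels. Markers of cardiomyocytes were abundant in every library. Of 12 markers 11 were in the table, none was at 0 in all libraries, and their summed normalized count ran from 2012180 to 2338465 in hrLuc and from 2123659 to 2312766 in S100a1. In such bulk tissue, fewer cells of a type and less RNA per cell cannot be told apart. Of the libraries, S100a1 replicate 1 stood apart. It held the lowest value of all 7 libraries in 24.1% of the genes tested, against 9.16% to 14.0% for each of the others. Its fibroblast markers summed to 87198, below the 109799 to 154880 of the other 6 libraries. Of the cardiomyocyte markers, ACTC1 was at 28568 in S100a1 replicate 1 against 51731 to 63288 in the other 6. MYL3, MYBPC3 and CKM were also lowest in that library, while MYH7, RYR2 and PLN were highest in it. T cell markers, all 7 of them tested, were at negative log2 fold changes in S100a1 (median -0.80), with sums of 401 to 838 in hrLuc and 273 to 442 in S100a1. Of these only CD3E, CD4 and CD5 had an unadjusted p under 0.05, and none passed after adjustment (CD5, a T cell surface receptor, at -1.11, adjusted p = 0.415, limma). Atrial muscle markers, of which 4 of 4 were tested and none was at 0 in all libraries, summed to 4854 in S100a1 replicate 3 and to 16199 to 22612 in the others. Most of this sum was MYL7, at 4300 in S100a1 replicate 3. MYL7 and MYL4 (45.3) were lowest there, but NPPA (498) and SLN (11.5) were not. S100a1 replicate 4 held the highest NPPA, MYL4 and SLN, at 1095, 177 and 26.2. The part of these markers in the results below was not tested.

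No member passed the threshold of an adjusted p of 0.05 in the comparison of S100a1 with hrLuc. Of the 10 genes, 0 were called by limma, as by edgeR, DESeq2 or limma-voom on the recovered reads, while 0.0128% of all genes tested were called by limma. HSPB3 was the 1 member with an unadjusted p under 0.05, which is close to the background of 8.26% of all genes. The groups did not overlap in 1 member, again HSPB3, against 9.27% of all genes. The log2 fold changes, all S100a1 over hrLuc on the log2(value + 0.5) scale, were positive in 3 members and negative in 7, with a median of -0.04 beside -0.02 for all genes tested. With median centring 5 of the 10 were positive, so the balance of directions depended on the scaling. In the authors' deposited table the adjusted p of the 10 rows ran from 0.177 (HSPB3) to 0.985 (BAG3). The 95% intervals of the single genes ran from a ratio of 0.556 at the lowest (HSPH1) to 1.53 at the highest (HSPB3).

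**Figure D1:**
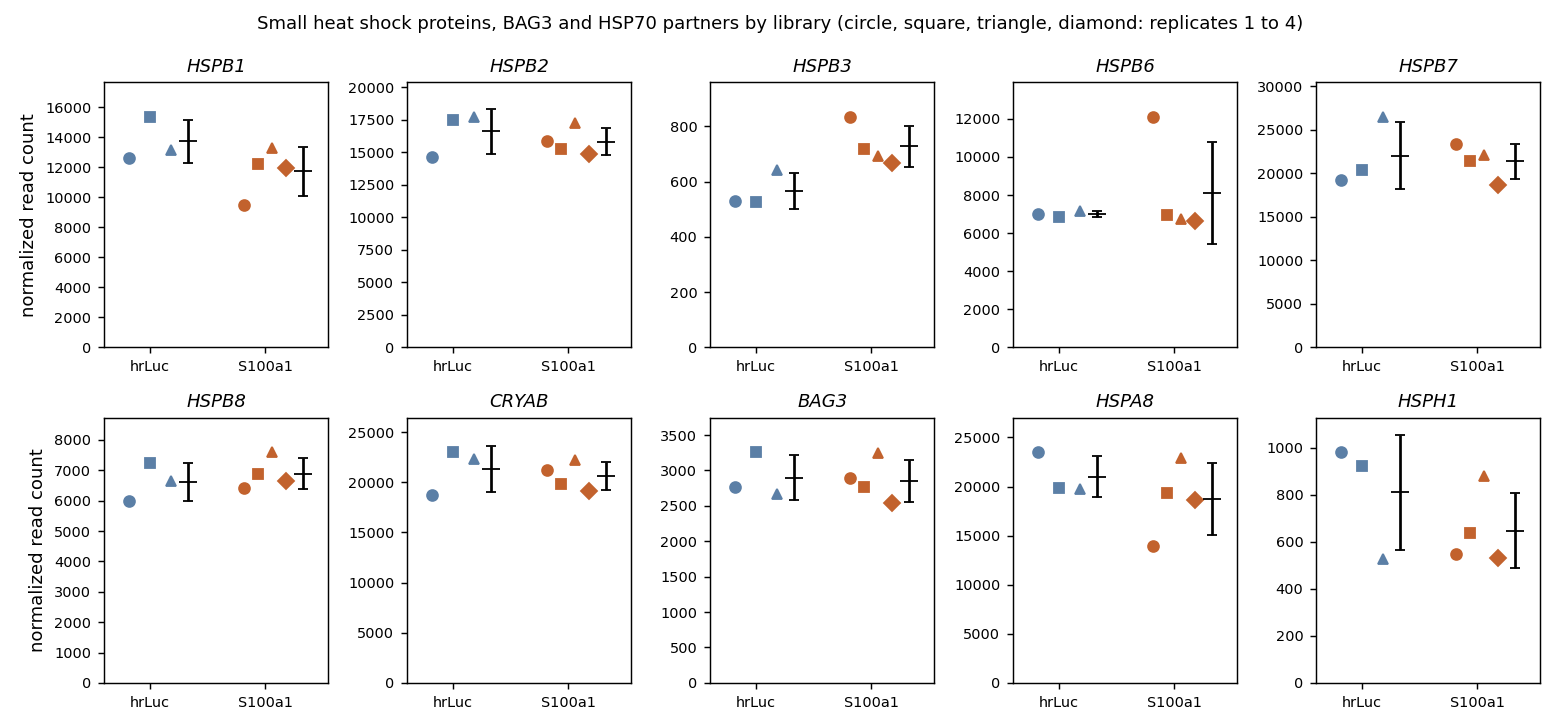
Normalized read count (vertical axis, from 0) of each of the 10 genes in the 3 hrLuc and 4 S100a1 libraries; markers are single libraries and the black bar beside each group is its mean ± SD. The groups overlap in every panel but that of HSPB3, and S100a1 replicate 1 is the high point of HSPB6 at 12103 and the low point of HSPB1 at 9458.

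CRYAB, the best known of the small heat shock proteins of heart muscle, differed between the groups by less than the spread between libraries. Its normalized read count was 18733, 22979 and 22358 in the 3 hrLuc libraries, in replicate order. The 4 S100a1 libraries had 21226, 19861, 22204 and 19105. Every S100a1 value lay between the lowest and the highest hrLuc value. S100a1 over hrLuc was at a log2 fold change of -0.05 ± 0.10 (SE), a ratio of 0.967 with a 95% interval of 0.831 to 1.13 (adjusted p = 0.901, limma). In the authors' deposited table the log2 fold change of the same row was -0.05 with an adjusted p of 0.946. CRYAB lies on chromosome 9 of Sscrofa11.1 from 39638505 to 39643530 and has 3 transcript rows, whose values differed little from one another (18733, 18504 and 18503 in hrLuc replicate 1).

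HSPB2, a small heat shock protein of muscle that binds the myotonic dystrophy kinase, followed CRYAB from library to library. Its count was 14643, 17465 and 17718 in hrLuc and 15900, 15283, 17235 and 14836 in S100a1. Its S100a1 values again fell inside the hrLuc range, and the log2 fold change was -0.07 ± 0.09 (adjusted p = 0.847, limma). Leaving out hrLuc replicate 1 gave -0.16, leaving out hrLuc replicate 3 gave -0.0185, and it was negative with any single library left out. Across the 7 libraries the log2 values of HSPB2 and CRYAB had a Pearson r of 0.974 (exact permutation p = 0.00218, adjusted p = 0.0982 over the 45 pairs of members) and a Spearman rho of 0.964 (exact permutation p = 0.00278, adjusted p = 0.125). Without the 2 libraries farthest from the median of HSPB2, r was 0.974, and with values centred on their group means it was 0.977.

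The annotation places these genes on top of each other, and their counts rose and fell together over the libraries. HSPB2 spans 39640117 to 39644104 on chromosome 9, so 3414 of its 3988 bases lie within CRYAB. C9H11orf1, another gene of the locus, spans 39629921 to 39641769 and overlaps CRYAB over 3265 bases and HSPB2 over 1653. Its count was 97.5% to 98.2% of that of CRYAB in every library, and that of HSPB2 was 74.9% to 79.2%. How reads in overlapping genes were counted, and whether strand was used, was found in none of the sources used here. The count of HSPB2 is therefore uncertain as a measure of HSPB2 alone, and whether the correlation reflects shared reads was not tested. A neighbour that does not overlap, C9H11orf52, 3360 bases from CRYAB, had 46.1 to 86.3 normalized counts. FDXACB1, which overlaps C9H11orf1 but lies 8518 bases from CRYAB, had 103 to 143.

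**Figure D2:**
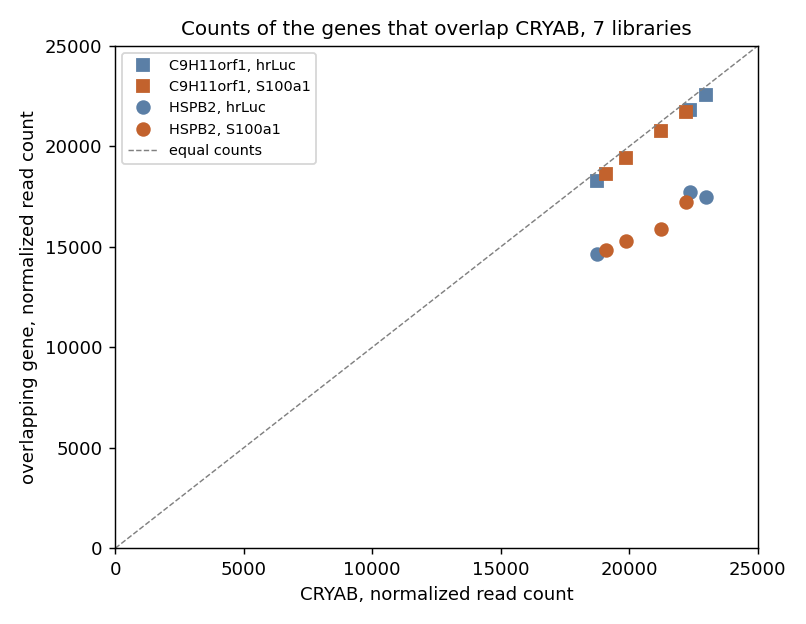
Normalized read count of HSPB2 (circles) and C9H11orf1 (squares) against that of CRYAB in the 7 libraries, hrLuc in blue and S100a1 in orange; the dashed line marks equal counts. The squares lie just under the line, at 97.5% to 98.2% of CRYAB, and the circles lie at 74.9% to 79.2% of it in both groups.

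HSPB3, the partner with which HSPB2 forms a muscle-specific complex, was the member with the largest difference between the groups. Its count was 531, 525 and 642 in hrLuc and 834, 718, 691 and 669 in S100a1. Every S100a1 library was above every hrLuc library, although hrLuc replicate 3 and S100a1 replicate 4 were only 26.7 normalized counts apart. The mean of hrLuc was 566 ± 65.9 (SD, n = 3), and S100a1 averaged 728 ± 73.7 (SD, n = 4). This is a log2 fold change of 0.36 ± 0.11 and a ratio of 1.29 with a 95% interval of 1.08 to 1.53. It did not pass after adjustment over all genes (adjusted p = 0.534, limma, from an unadjusted p of 0.00909). By exact permutation (two-sided) the 7 values gave p = 0.0286, the smallest that this design allows. The authors' deposited table gives it a log2 fold change of 0.36 and an adjusted p of 0.177. Leaving out any single library kept the log2 fold change between 0.30 and 0.46. HSPB3 lies on chromosome 16 from 33716458 to 33717402 and overlaps no other gene of the RefSeq table.

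The ratio of HSPB3 to HSPB2, chosen after the values were seen, was 0.0362, 0.0301 and 0.0362 in hrLuc and 0.0525, 0.0470, 0.0401 and 0.0451 in S100a1. The groups did not overlap, and the ratio was 1.35 times as high in S100a1 (exact two-sided permutation p = 0.0571). The count of HSPB2 that stands in this ratio carries the overlap described above.

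HSPB6, also known as HSP20 and phosphorylated by the cyclic nucleotide kinases in cardiac and smooth muscle, was almost level in 6 libraries and high in the remaining one. It had 7032, 6861 and 7149 normalized counts in hrLuc, then 12103 in S100a1 replicate 1 and 6948, 6768 and 6638 in S100a1 replicates 2 to 4. The log2 fold change was 0.16 ± 0.19 (adjusted p = 0.826, limma), and without S100a1 replicate 1 it was -0.05 (adjusted p = 0.925, limma). The residual SD of HSPB6 was above that of 97.6% of the 500 genes closest to it in mean level. Its closest neighbours on chromosome 6 did not share the high value. LIN37, 56 bases away, had 367 normalized counts in that library and 333 to 384 in the others, and PROSER3, 754 bases away, had 171 against 132 to 188. Smooth muscle and pericyte markers, of which 10 of 10 were tested, summed to 41442 in S100a1 replicate 1. The sums in hrLuc were 32347 to 40056, and those of the other S100a1 libraries were within or just below that range. Of the 10 markers, 2 were highest in S100a1 replicate 1. MYOCD, a transcription co-activator of cardiac and smooth muscle, had 9843 there against 5007 to 6220 in the other 6 libraries, 1.58 times the next highest, where HSPB6 was 1.69 times the next highest. KCNJ8, a potassium channel subunit, had 2931 against 1958 to 2300. RGS5, another of the 10 markers, was lowest in that library, at 4326 against 4685 to 7074 in the other 6. The contractile markers MYH11, ACTA2, TAGLN and CNN1 were each highest in an hrLuc library. None of these markers was at 0 in all libraries, and their part in the value of HSPB6 was not tested.

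HSPB1, or HSP27, which stabilises actin filaments under stress, was lowest in the same library. Its counts were 12645, 15359 and 13160 in hrLuc and 9458, 12210, 13302 and 11955 in S100a1. The groups overlapped through S100a1 replicate 3, which was above hrLuc replicates 1 and 3. The log2 fold change was -0.23 ± 0.12 (adjusted p = 0.636, limma), with a 95% interval of the ratio from 0.702 to 1.03, and it moved to -0.13 without S100a1 replicate 1. HSPB1 lies on chromosome 3 from 10038074 to 10039441 and overlaps no other gene of the RefSeq table.

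HSPB7, a heart-enriched member that binds actin monomers and filamin C, had 19260, 20406 and 26500 normalized counts in hrLuc. In S100a1 it had 23342, 21462, 22067 and 18655. Here hrLuc replicate 3 was the highest library, and S100a1 replicate 4 the lowest. For HSPB7 the log2 fold change came to -0.04 ± 0.13 (adjusted p = 0.945, limma), with a 95% interval of the ratio from 0.801 to 1.19, and it was 0.10 without hrLuc replicate 3. HSPB7 lies on chromosome 6 from 75171507 to 75174918, far from HSPB6 at 45181439 to 45184011 on the same chromosome, and neither overlaps another gene of the table.

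BAG3 and its partner HSPB8 differed between the groups by less than the spread between libraries. BAG3 had 2770, 3256 and 2669 normalized counts in hrLuc and 2894, 2761, 3241 and 2533 in S100a1. The highest library of one group nearly equalled the highest of the other, and the log2 fold change was -0.02 ± 0.10 (adjusted p = 0.963, limma), with a 95% interval of the ratio from 0.841 to 1.16. HSPB8 had 5981, 7236 and 6652 in hrLuc and 6419, 6880, 7594 and 6655 in S100a1. In HSPB8 it was 0.06 ± 0.09 (adjusted p = 0.865, limma), and its interval, from 0.908 to 1.19, was the narrowest of the 10 genes on the log2 scale. The ratio of the read count of HSPB8 to that of BAG3, not corrected for length, was 2.16 to 2.63 in the 7 libraries and its groups overlapped (exact two-sided permutation p = 0.457). BAG3 spans 129510240 to 129533998 and HSPB8 spans 33626125 to 33639824 on chromosome 14, and neither overlaps another gene of the table.

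The HSP70 partners varied more between animals than the BAG3 and HSPB8 pair. HSPA8 had 23484, 19814 and 19761 normalized counts in hrLuc. In S100a1 it had 13932, 19380, 22925 and 18644, so S100a1 replicate 1 was the low library here too. For HSPA8 the log2 fold change came to -0.18 ± 0.16 (adjusted p = 0.749, limma), and it was -0.05 without that library and -0.29 without S100a1 replicate 3. The gene lies on chromosome 9 from 49982278 to 49986760. HSPH1, the HSP110 protein that recharges HSP70 by exchanging its nucleotide, had 981, 921 and 528 in hrLuc and 546, 636, 879 and 531 in S100a1, and its span is 7733874 to 7759528 on chromosome 11. Its values fell into a high set of 3 libraries, hrLuc replicates 1 and 2 and S100a1 replicate 3, and a lower set of 4 that held libraries of both labels. The log2 fold change was -0.30 ± 0.24 (adjusted p = 0.743, limma), and leaving out hrLuc replicate 3 moved it to -0.58, leaving out hrLuc replicate 1 to -0.14. The residual SD of HSPH1 was above that of 95.6% of the 500 genes closest in level and that of HSPA8 above 90.4%. The share was 74.2% for BAG3, 53.8% for HSPB8, 43.8% for CRYAB and 39.2% for HSPB2. Among the remaining members it was 97.6% for HSPB6, 75.8% for HSPB7, 75.6% for HSPB1 and 62.8% for HSPB3. The ratio of HSPH1 to HSPA8 was 0.0267 to 0.0465 and that of BAG3 to HSPA8 was 0.118 to 0.208, and both overlapped between the groups (exact two-sided permutation p = 0.629 and 0.543).

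**Figure D3:**
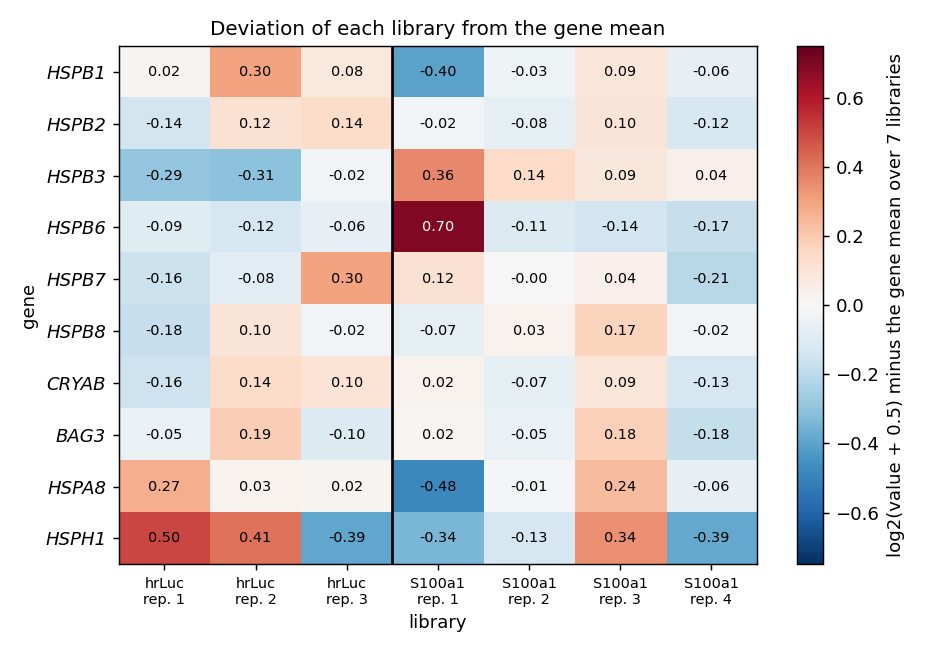
Deviation of log2(value + 0.5) from the mean of each gene over the 7 libraries, with genes in rows, libraries in columns and a black line between the hrLuc and S100a1 libraries. S100a1 replicate 1 holds the extreme cells of HSPB6 (0.70), HSPA8 (-0.48), HSPB1 (-0.40) and HSPB3 (0.36), and HSPH1 ranges from -0.39 to 0.50 across libraries of both labels.

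Among the 45 pairs of members, 31 had a positive Pearson r across the 7 libraries, with a median of 0.13, and 0 passed after adjustment. Before adjustment 2 pairs had an exact p under 0.05. One was HSPB2 with CRYAB, and the other was HSPB1 with HSPB3, at r = -0.80 (exact permutation p = 0.0375, adjusted p = 0.364) and rho = -0.68 (exact permutation p = 0.1095). That relation rested on the 2 libraries farthest from the median of HSPB1, since r was -0.11 without them. HSPA8 and HSPH1 had r = 0.69 (exact permutation p = 0.0649, adjusted p = 0.364) and rho = 0.71 (exact permutation p = 0.0881), and r was 0.65 without the 2 farthest libraries.

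**Figure D4:**
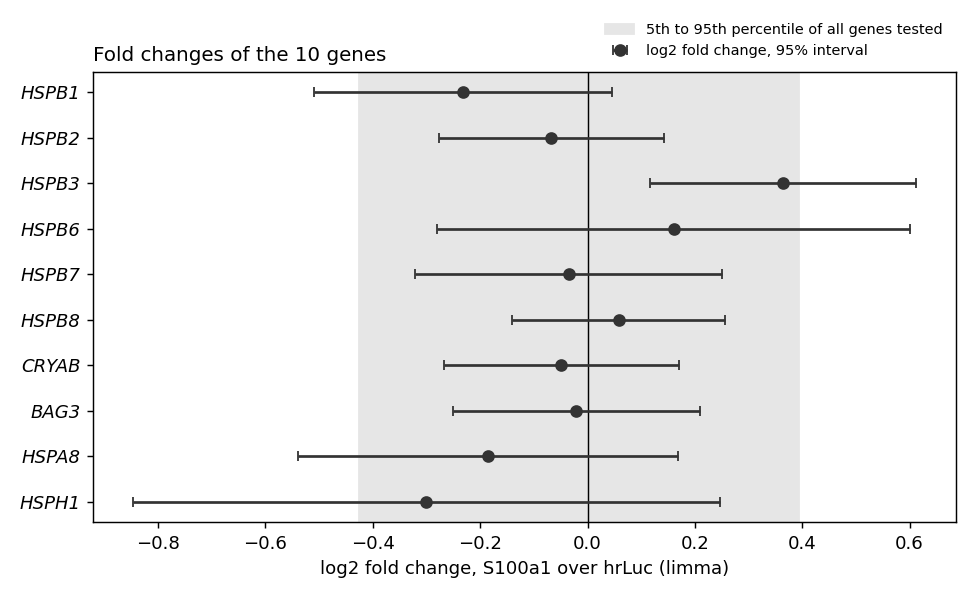
Log2 fold change of S100a1 over hrLuc with its 95% interval for each of the 10 genes; the grey band runs from the 5th to the 95th percentile of the log2 fold changes of all genes tested, -0.43 to 0.39. All 10 points lie inside the band, and the interval of HSPB3, from 0.12 to 0.61, is the one that does not reach 0.

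The genes most like BAG3, HSPB1 and CRYAB in their pattern over the 7 libraries were found by Pearson's r among named genes averaging 100 normalized counts or more, as a description. For BAG3 they were EVI5 (r = 0.955), ALG1 (0.943) and TBPL1 (0.933). For HSPB1 they were WAC (r = 0.979), PLEKHH3 (0.973) and GTF2E2 (0.970), and without the 2 libraries farthest from its median the same r values were 0.777, 0.536 and 0.510. For CRYAB they were the overlapping C9H11orf1 (0.9997) and HSPB2 (0.974), then TPMT (0.939).

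Related chaperones and their clients were examined through 9 lists of 86 genes, of which 80 were tested. By limma 0 passed the threshold, and likewise by edgeR, DESeq2 and limma-voom. Only 4 of the 80 had an unadjusted p under 0.05, where the 8.26% of all genes would be 6.61 genes. The groups did not overlap in 2 of 12 J-domain genes, 1 of 11 HSP90 genes, 1 of 10 chaperonins and 1 of 8 BAG and cofactor genes. In the other lists tested they overlapped for every gene, and over all genes 9.27% did not overlap. Of the 80 genes, 23 had a positive log2 fold change and 57 a negative one, with a median of -0.07 beside -0.02 for all genes tested. With median centring the split was 34 to 46 and the median was -0.02. Without S100a1 replicate 1 the split was 25 to 55 and the median was -0.04. S100a1 replicate 1 held the lowest of the 7 values in 33 of these 80 genes, and hrLuc replicate 3 held the highest in 27. Over all genes tested the same libraries held 24.1% of the lowest and 19.1% of the highest values, the largest share of either kind.

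The HSP70 and HSP110 family, in which the list includes the mitochondrial HSPA9, had 4 of 10 tested members positive and 6 negative (median -0.04), and 5 of each with median centring. HSPA6, a stress-induced HSP70, was at -0.48 with 13.1 to 27.8 normalized counts per library, and HSPA14, which works at the ribosome, was at -0.11. The main stress-induced HSP70 gene is listed as HSP70.2, with HSPA1A and HSPA1B as its RefSeq synonyms. It had 1310, 3453 and 1410 normalized counts in hrLuc and 1250, 1261, 1868 and 1714 in S100a1. The log2 fold change of -0.31 ± 0.32 did not pass (adjusted p = 0.799, limma). HSP70.2 overlaps HSPA1L, which had 4284, 10329 and 4686 in hrLuc and 4034, 4291, 5950 and 5626 in S100a1. The count of HSP70.2 is therefore uncertain as a measure of that gene alone, and whether the 2 share reads was not tested. Both were highest in hrLuc replicate 2, the library that was also highest for HSPB1, CRYAB and BAG3. The other members peaked elsewhere: HSPA8 and HSPH1 in hrLuc replicate 1, HSPB2 and HSPB7 in hrLuc replicate 3, and HSPB3, HSPB6 and HSPB8 in S100a1 libraries.

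J-domain proteins, which deliver clients to HSP70, had 4 of 12 members positive and 8 negative (median -0.07), and 2 had an unadjusted p under 0.05. DNAJB5 had 1588, 1867 and 1918 normalized counts in hrLuc and 2818, 2187, 2183 and 2189 in S100a1. Its groups did not overlap, and its log2 fold change was 0.38 ± 0.11 (adjusted p = 0.530, limma). It overlaps LOC100525024. DNAJB4 was at 0.22 ± 0.09 (adjusted p = 0.575, limma). The groups of DNAJC5 did not overlap either, with S100a1 lower, at -0.14 ± 0.07 (adjusted p = 0.636, limma).

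HSP90 and its co-chaperones had 10 of 11 members negative (median -0.11), and 9 of 11 with median centring. HSP90AA1, the inducible HSP90, had 17021, 15361 and 15774 normalized counts in hrLuc and 12061, 14761, 14598 and 13170 in S100a1. All S100a1 values lay below all hrLuc values, and the log2 fold change was -0.24 ± 0.09 (adjusted p = 0.563, limma). S100a1 replicate 1 was the lowest library here, and the directions of the single lists without that library were not counted. Chaperonins, the ring-shaped folding machines, had 9 of 10 members negative (median -0.10), and 8 of 10 with median centring. CCT5, a subunit of the cytosolic ring, was at -0.29 ± 0.08 (adjusted p = 0.530, limma), with 2113, 2212 and 2155 in hrLuc and 1651, 1811, 2008 and 1630 in S100a1, also without overlap between the groups. It overlaps LOC110257272.

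The other BAG proteins and HSP70 cofactors were negative in 8 of 8 (median -0.07), but in 4 of 8 with median centring and in 7 of 8 with quantile normalization, so the shared sign depended on the scaling. Of all genes tested, 43.5% had a positive log2 fold change. In this list HSPBP1, a nucleotide exchange factor, was at -0.19 without overlap between the groups, and BAG1 was at -0.14. The log2 fold changes of the list ran from -0.19 to -0.0036. The list of chaperone-assisted selective autophagy, the route that BAG3 and HSPB8 serve, had 7 of 15 members positive and 8 negative (median -0.01), and 9 positive with median centring. In it SYNPO2, which ties BAG3 to the membrane fusion machinery, was at 0.21 ± 0.12 (adjusted p = 0.646, limma, overlapping SEC24D), and WIPI1 was at 0.19 (overlapping ARSG). Filament and Z-disc clients had 5 of 11 positive and 6 negative (median -0.06), with MYOT, the Z-disc protein myotilin, at 0.27 (overlapping LOC110259498) and LMNA, lamin A/C, at -0.15. The filamin C gene FLNC, a client of BAG3, had 59590, 70596 and 72113 normalized counts in hrLuc and 85484, 71119, 70996 and 72381 in S100a1.

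Heat shock factors switch on stress-induced chaperone genes in response to misfolded protein. HSF1 was at -0.10 (overlapping DGAT1) and HSF2 at 0.11, and neither passed at an unadjusted p under 0.05. HSBP1, the other gene tested in this list, is not itself a factor and was at -0.0055. With median centring 2 of the 3 tested were positive, against 1 of 3 without it. The remaining alpha-crystallin domain genes were barely present and were not tested. CRYAA, the lens form, had a mean of 0.277 normalized counts, HSPB9, a testis form, had 4.41, and ODF1, a sperm tail protein, was listed at 0 in all 7 libraries.

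**Figure D5:**
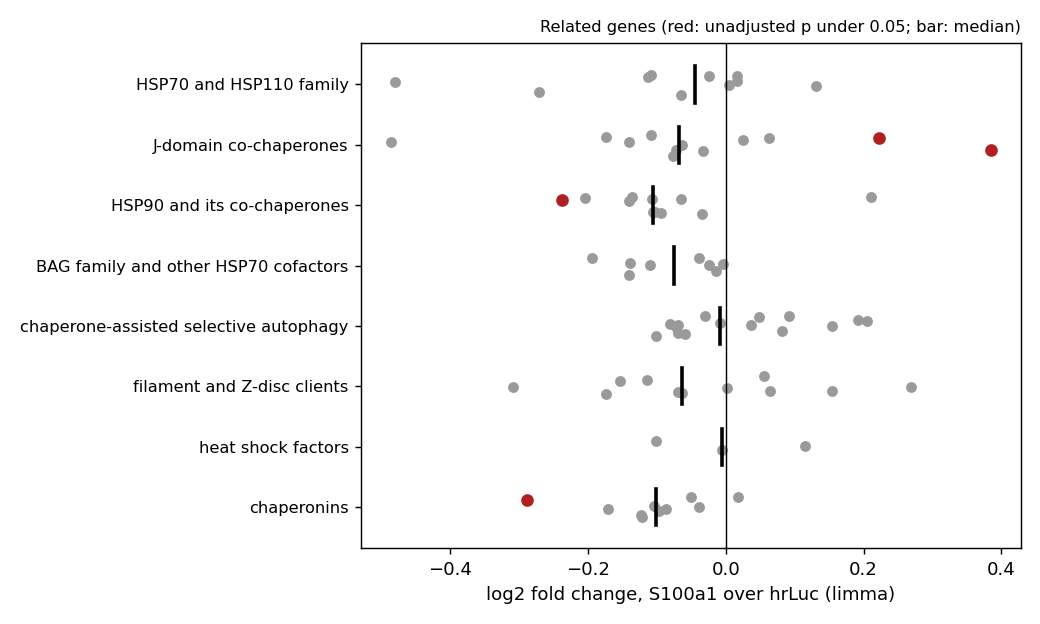
Log2 fold change of S100a1 over hrLuc for the 80 tested genes of 8 lists of related genes, 1 point a gene; red points have an unadjusted p under 0.05 and black bars are list medians. The 4 red points are DNAJB5 (0.38) and DNAJB4 (0.22) on the right and CCT5 (-0.29) and HSP90AA1 (-0.24) on the left.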

How the data were processed

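RNA was sequenced from 7 pig hearts. Per the labels' protocols, libraries were made from total RNA with a kit that depletes ribosomal RNA. The submitters' processing notes list the build Sscrofa11.1 and, without roles, DESeq2 1.33.1, FastQC 0.11.8 and R 4.1.2. Neither the aligner nor the handling of overlapping genes is named in the sources used here. The authors deposited a signal per transcript and library, namely a read count divided by a size factor: dividing by what 1 read is worth (0.824 to 1.14 units) gave whole reads for 100% of values, within 0.01 read. The deposited log2 column, ratio column and adjusted p-value column are the authors' own comparison.

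All 63562 rows matched the RefSeq table, and the row of highest mean was kept per gene. Genes that reached 10 normalized counts in 3 or more libraries entered limma 3.58.1 (R 4.3.3) with a mean-variance trend on log2(value + 0.5), with no covariates. The test was two-sided, with 5 residual and 3.84 prior degrees of freedom and Benjamini-Hochberg adjustment over 15661 genes. Fold changes on this scale understate those of low genes. Alternatives on the recovered reads were limma-voom, DESeq2 1.42.0 and edgeR 4.0.16. Single values were tested by exact permutation over 35 arrangements. Correlations were computed in Python 3.11.15. The 10 genes and all lists were chosen with earlier results of these data known. Named related genes are those with an unadjusted p under 0.05 or else the 2 of smallest p in a list. HSP70.2, HSPA1L, DNAJC5, FLNC, HSBP1, C9H11orf1, the neighbours and the ratios were added after values were seen. Ratios between genes are ratios of read counts, not corrected for transcript length, and are compared between libraries only.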

Additional observations from a re-analysis of the deposited data

Results flagged for a closer look

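The normalized read count of HSPB6 in S100a1 replicate 1 was 12103.4, far from the 6638 to 6948 of the other 3 S100a1 libraries, while the 3 hrLuc libraries held 6861 to 7149. The distance to the nearest S100a1 library, divided by the range of the group, was above Dixon's 95% critical value for 4 samples. The screen covered 11 genes, the 10 described and S100A1, and chance marks about 1 in 20 groups.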

How the results depend on the processing

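The number of genes called over the whole table was 2, and it was 1 with median centring, 89 with DESeq2, 0 with limma-voom (1278 at an unadjusted p under 0.05), 0 with the replicate number as a block and 0 to 3 with a library left out. No setting called any of the 10 genes, and the lowest adjusted p was 0.176 (HSPB3, DESeq2). HSPB1, HSPB2, HSPB3, HSPA8 and HSPH1 kept their direction in all 19 settings, but not all of these could turn a sign. The filter settings left the estimates unchanged, as did the choice of transcript row in members with 1 row. The replicate block gave the same estimates as leaving out S100a1 replicate 4. Signs close to 0 turned in other members. With median centring HSPB7 was at 0.012 and BAG3 at 0.026. With the replicate block HSPB7 was at 0.029 and BAG3 at 0.035. BAG3 was at 1.65e-04 with edgeR and 9.06e-04 with limma-voom. With each library left out in turn, HSPB6 ran from -0.048 to 0.24, HSPB7 from -0.13 to 0.10, HSPB8 from -0.013 to 0.12, CRYAB from -0.14 to 0.0070 and BAG3 from -0.083 to 0.066, and HSPB1 (-0.30 to -0.13), HSPB2 (-0.16 to -0.0185), HSPA8 (-0.29 to -0.05) and HSPH1 (-0.58 to -0.14) did not turn. The cause was not tested. The correlation of HSPB2 with CRYAB stayed between 0.966 and 0.987. The replicate numbers did not pair the libraries: deviations of same-numbered libraries correlated at -0.022, -0.075 and 0.082. The 95% intervals are not adjusted for the number of genes, and in every member but HSPB3 they include a ratio of 1.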
